A study of Bos taurus with 16 samples.

Results

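The methylation of potassium, calcium, sodium and transient receptor potential (TRP) channel genes was examined in endometrial cells of postpartum dairy cows. Members were the autosomal CpG positions whose gene symbol starts with KCN, CACN, SCN, RYR, ITPR, HCN, TRPC, TRPM or TRPV. This rule found 2654 of the 199395 positions and 130 genes. A methylation level, the mean percent methylation over the positions of a gene, was computed for the 122 channel genes with 2 or more positions, of 8719 such genes in all. Another 8 channel genes had 1 position and entered only as single sites, and 2 channel genes on chromosome X with 21 positions were left out. ITPRIP and TRPC4AP, which are no channel subunits, were caught by their symbols and kept as members.

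These channels let ions cross a membrane. Potassium channels pull the membrane potential down and limit excitation, voltage-gated calcium and sodium channels open on depolarisation, and ryanodine and inositol trisphosphate receptors release calcium from internal stores. In the uterus, channels of these families take part in the contraction of smooth muscle and in the movement of sodium, potassium and fluid across the endometrial epithelium. Methylation of cytosine in CpG dinucleotides is often low where a gene starts and high inside gene bodies, and it is not a measure of expression.

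Reduced representation bisulfite sequencing (RRBS), which reads CpG positions near MspI cut sites, gave 16 libraries of multiparous Holstein cows, with 4 libraries for each group, namely MET_P, MET_noP, CON_P and CON_noP. CON cows received a control diet and MET cows rumen-protected methionine (RPM) from day 12 postpartum. Cows had been matched in pairs by expected calving date, parity and earlier milk yield, and randomised to the diets within pairs. The labels do not give these pairs, so no pairing was used. Cells were collected by cytobrush 4 to 8 h after artificial insemination between days 50 and 64 postpartum, and P and noP mark an insemination that resulted in pregnancy or not. No pregnancy was yet known at sampling, and all groups were sampled at oestrus. By the study's methods DNA was isolated from more brush samples than there are libraries, and from more noP than P samples on each diet. How these were combined is not given, so a library may hold several cows, and SDs and p-values measure the spread between libraries. Library names (S12 to S31) are those of the deposited table. Read counts per position were not used here, the depth per position is unknown, and no counting interval can be given. The study reports more raw reads and more CpG calls on average in MET_P than in the other groups. After adapter cleaning, however, it gives less sequence per sample in MET_P than in either noP group. The part of depth in the MET_P values was not tested.

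A cytobrush takes a mixture of cells, so a change in cell makeup and a change of methylation within a cell type cannot be told apart. RRBS measures no RNA, and the expression of cell type markers could not be checked. Of the marker genes listed, 3 of 9 epithelial, 5 of 6 stromal and 6 of 8 leukocyte genes had 2 or more positions. The mean level of the epithelial genes was 23.0% ± 3.07 (SD, n = 4) in MET_P and 25.8% ± 7.46 in MET_noP, beside 25.6% ± 4.85 in CON_P and 22.4% ± 3.48 in CON_noP. The leukocyte genes were at 57.1% ± 1.41, 53.8% ± 2.35, 56.5% ± 5.17 and 56.8% ± 2.87 in the same order, so their mean was lowest in MET_noP. The stromal genes were at 42.4% ± 1.09, 42.7% ± 2.15, 40.5% ± 2.14 and 42.2% ± 1.95, and their mean was lowest in CON_P. MUC1, an epithelial mucin, ranged from 16.7% to 52.5% over the libraries, and PTPRC, the leukocyte antigen CD45, from 42.9% to 77.8%. The part of these markers in the channel values was not tested.

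The channel genes covered almost the whole range of methylation. Their median level over the libraries was 67.9%, beside 69.0% for all 8719 genes, and the middle range ran from 48.0% to 85.2%. CACNG7, an auxiliary subunit of calcium channels and glutamate receptors, was lowest at 6.75% ± 2.20 (SD, n = 16) and TRPC4AP highest at 98.0%. Levels under 20% were found for 11 channel genes (9.02%, beside 16.6% of all genes), levels of 20% to 80% for 74 (60.7%, beside 46.8%) and levels above 80% for 37 (30.3%, beside 36.6%). Channel genes thus lay more often in the intermediate range. They also had more positions per gene, with a median of 9.5 beside 5. At single positions the shares were closer. Of the channel sites, 12.4% were under 20%, 36.9% between and 50.7% above 80%. Of all autosomal sites, these shares were 17.4%, 32.6% and 50.0%. Positions that read as unmethylated in any library are missing from the deposited values. All levels and shares given here therefore hold only for the positions kept.

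**Figure D1:**
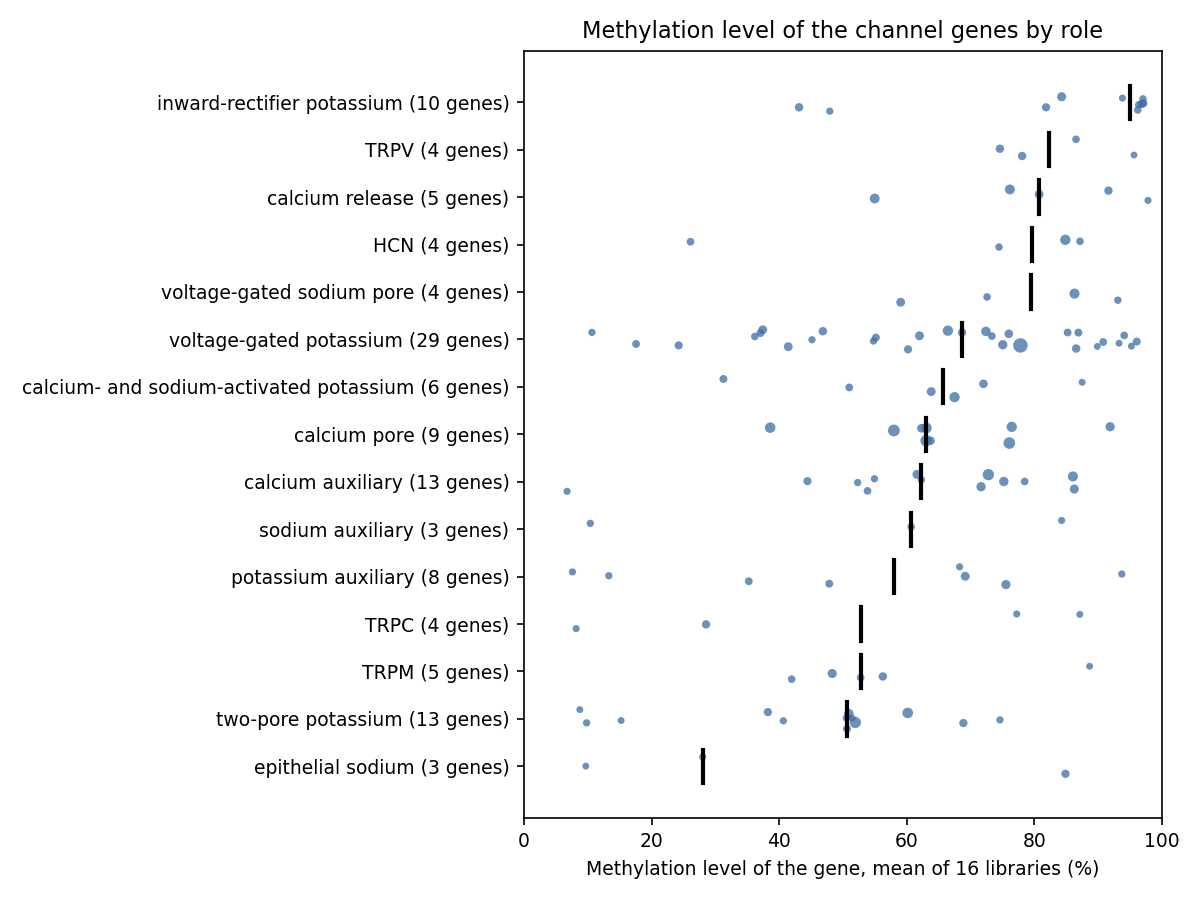
Each point is the methylation level of 1 channel gene (mean of 16 libraries, %), larger for genes with more positions, and each black line is the median of a role group with 3 or more genes. Inward rectifiers have the highest median (95.0%) and epithelial sodium channels the lowest (28.01%), and 6 of the 15 groups hold both a gene under 20% and one above 80%.

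Among potassium channels, the 10 inward rectifiers, which set the resting potential, were the most methylated, with a median of 95.0%. KCNJ2, an inward rectifier of heart and skeletal muscle, reached 97.1% ± 0.903 (SD, n = 16), whereas KCNJ9, a subunit opened by G proteins, was at 43.1%. The 13 two-pore channels, which carry background potassium current, had a median of 50.6%. They ran from KCNK3 at 8.75%, KCNK2 at 9.81% and KCNK6 at 15.2% to KCNK18 at 74.6%, and none was above 80%. The 29 voltage-gated potassium channels had a median of 68.7% and spread from KCNV1, a subunit that forms no channel alone, at 10.7% to KCNG2 at 96.1%. Of the 6 channels activated by calcium or sodium, KCNN4, the intermediate-conductance channel of lymphocytes and epithelia, was lowest at 31.3% ± 10.6 (SD, n = 16) and KCNT2 highest at 87.5%. Of the 8 auxiliary potassium subunits, KCNIP4 was at 7.60% and KCNMB1 at 93.7%.

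Among calcium channels, the 9 pore subunits lay between CACNA1A, the P/Q-type pore of nerve terminals, at 38.6% and CACNA1D, an L-type pore, at 91.9%. The 13 auxiliary subunits had a median of 62.3% and ran up to CACNA2D3 at 86.3%. The 5 calcium release channels had a median of 80.8%, with RYR1, the skeletal muscle ryanodine receptor, at 55.0% and ITPR2 at 97.8%. The sodium channels included 4 measured pore subunits, from SCN4A of skeletal muscle at 59.1% to SCN3A of neurons at 93.1%. Their 3 auxiliary subunits ran from SCN4B at 10.4% to SCN3B at 84.3%. In the epithelial sodium channel, which takes up sodium across epithelia, SCNN1B was at 9.68% and SCNN1A at 28.01%, while SCNN1D was at 84.9%. The pacemaker channels ran from HCN4 at 26.1% to HCN3 at 87.2%. In the TRP families, TRPC4 was at 8.18% and TRPC2 at 87.2%, TRPM3 at 42.0% and TRPM8 at 88.7%, and the TRPV genes ran from TRPV5 at 74.6% to TRPV6 at 95.7%. The last pair are calcium-selective channels of transporting epithelia.

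A gene mean covers unlike stretches of the same gene. Positions of a gene no more than 100 bp apart were joined to clusters of 3 or more, which gave 372 channel clusters over 100 genes with a median length of 56 bp. In 42 channel genes with 3 or more clusters, the lowest and the highest cluster differed by a median of 61.7 percentage points. The difference exceeded 50 points in 28 of them (66.7%), beside 46.8% of the 1822 autosomal genes with 3 or more clusters. Both a cluster under 20% and one above 80% were present in 14 of the 42 (33.3%, beside 19.2%). CACNA1B, the N-type calcium pore, ran from 7.67% to 97.7% over 11 clusters. CACNA1C, the L-type pore of smooth and cardiac muscle, ran from 13.8% to 97.0% over 18 clusters, and KCNK13, a two-pore channel, from 13.3% to 93% over 12. KCNT1, a sodium-activated potassium channel, had 7 of its 10 clusters between 20% and 80%. Whether these clusters lie in exons, introns or promoters was not analysed here.

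KCNQ1 held 340 positions, the most of any channel gene, followed by CACNA1S with 124 and CACNA1C with 116. KCNQ1 encodes a voltage-gated potassium channel of heart and epithelia, and in mammals it lies in an imprinted region. Its 52 clusters (ARS-UCD1.2, chr29:48761427-49134234) were mostly highly methylated, with 37 above 80%, 14 between 20% and 80% and 1 under 20%. The low cluster at chr29:48779403-48779435 was at 18.6% ± 8.15 (SD, n = 16), and the cluster next to it, chr29:48779798-48779974, at 86.6%. A similar step was seen at chr29:49040654-49040857, where 15 positions averaged 30.2%, next to 21 positions at chr29:49041289-49041482 that averaged 93%. Further low clusters were those at chr29:48858849-48858929 with 22.3% and chr29:49086585-49086684 with 21.2%. Levels of the parental alleles were not measured.

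**Figure D2:**
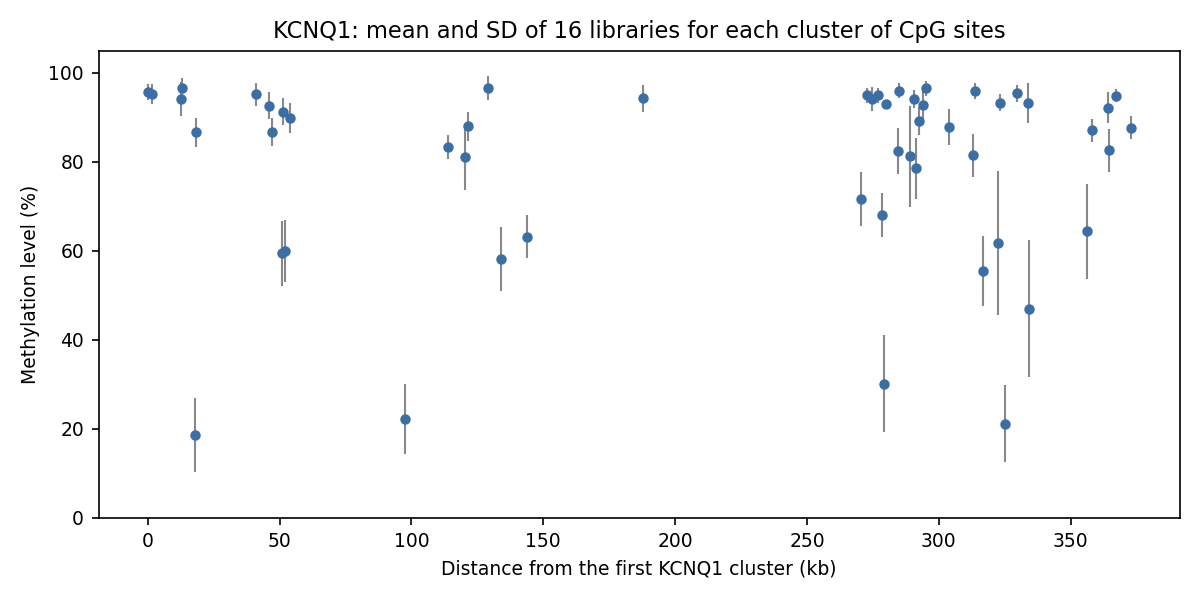
Methylation level (%) of the 52 KCNQ1 clusters against their distance from the first cluster in kb, as mean (points) and SD (lines) of 16 libraries. Most clusters lie above 80%, and clusters at 18.6%, 22.3%, 30.2% and 21.2% interrupt them.

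Libraries varied most at clusters of intermediate level. The median SD over the libraries was 7.86 percentage points for channel clusters of 20% to 80%, beside 2.88 above 80% and 3.61 under 20%, and over all autosomal clusters these were 8.19, 2.65 and 3.66. TRPM3, a TRP channel opened by heat and by pregnenolone sulfate, varied most: its only cluster, 6 positions at chr8:46783253-46783312, had an SD of 18.2 points. Its level was 50.0%, 8.44%, 23.5% and 28.6% in CON_noP and 49.7%, 43.5%, 15.2% and 33.3% in CON_P. It was 59.9%, 62.7%, 35.9% and 71.9% in MET_noP and 63.9%, 34.0%, 54.4% and 36.4% in MET_P. No CON library exceeded 50.0% and no MET library was under 34.0%, and between these values the diets overlapped. Over both outcomes TRPM3 was at 52.4% in MET and 31.5% in CON, and this difference of 20.9 points was the largest of a channel gene for diet (limma, adjusted p = 0.505; exact permutation test within outcomes, p = 0.0224).

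KCNQ1 gave the next most variable clusters. At chr29:49083931-49083986 levels ran from 24.1% in MET_noP library S25 to 81.7% in CON_noP library S12. At chr29:49095622-49095776, a cluster of 10 positions, they ran from 20.8% in CON_P library S26 and 21.0% in S25 to 67.2% in MET_noP library S17. S25 and S26, which belong to different groups, were low at both clusters. KCNK10, a two-pore channel sensitive to stretch, ran from 44.5% to 91.8% over 29 positions at chr10:99915458-99915583. KCNK9, another two-pore channel, ran from 12.5% to 59.9% over 14 positions at chr14:3677172-3677269, with the highest value in S25. KCNN4 at chr18:51974555-51974611 stood at 70.9% in S25 and between 12.6% and 42.0% in the other libraries. KCNH2, the potassium channel that ends the cardiac action potential, was at 22.3% in S25 and reached 73.1% in MET_P library S15 over 7 positions at chr4:113546934-113547015.

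A few libraries supplied many of the extreme values. Over the 145 channel clusters of 20% to 80%, CON_P library S14 was the highest library at 41 (28.3%), beside 20.5% of the 5183 such clusters of all autosomal genes. S25 was the highest at 16 (11.0%, beside 16.4%) and the lowest at 15 (10.3%, beside 9.13%). CON_noP library S16 was the lowest at 21 (14.5%, beside 13.4%). Over the 14 cell type markers, S25 was the highest library at 4 and the lowest at 1, and S14 was the highest at 2 and the lowest at 2. Their part in these extremes was not tested.

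**Figure D3:**
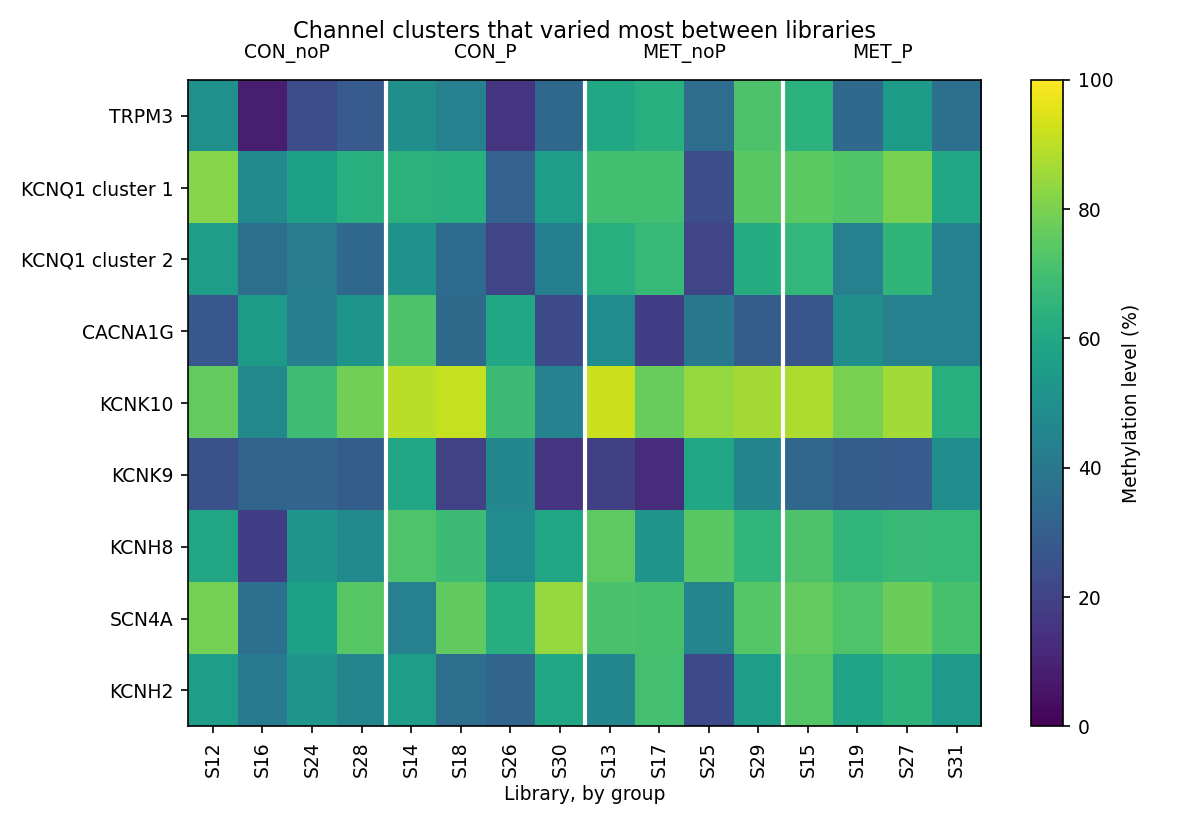
Methylation level (%, colour) of the 9 channel clusters with the largest SD, one row each, in the 16 libraries ordered by group. Values differ within every group: TRPM3 runs from 8.44% to 50.0% within CON_noP, and library S25 is the lowest in 2 rows and the highest in 1.

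The mean level over the 122 channel genes was 63.7% ± 0.285 (SD, n = 4) in MET_P and 63.8% ± 0.672 in MET_noP, and it was 63.4% ± 1.57 in CON_P and 62.6% ± 0.379 in CON_noP. Over all 8719 genes these were 61.4% ± 0.370, 61.1% ± 0.616, 60.7% ± 1.06 and 60.1% ± 0.831. The group order of the channel genes differed from that of all genes only in MET_P and MET_noP, which lay within 1 SD of each other on both scales.

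Each comparison was fitted with limma on M values, log2((percent + 1)/(100 - percent + 1)), at 3 levels: genes, clusters and single positions. Over 8719 genes, 27325 clusters and 199395 positions, no channel gene, no channel cluster and no channel site passed an adjusted p of 0.05 in any of the 7 comparisons (limma, Benjamini-Hochberg). The background was as low, with 0.0% of all genes called in every comparison, 1 cluster (0.00366%) and 2 positions (0.001%) called for the interaction of diet and outcome and 1 position (0.000502%) for outcome. What follows describes the channel genes nearest to the threshold, and none of them is a called difference. The 4 comparisons of 2 groups share libraries, so their values for a gene are not independent of each other.

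**Figure D4:**
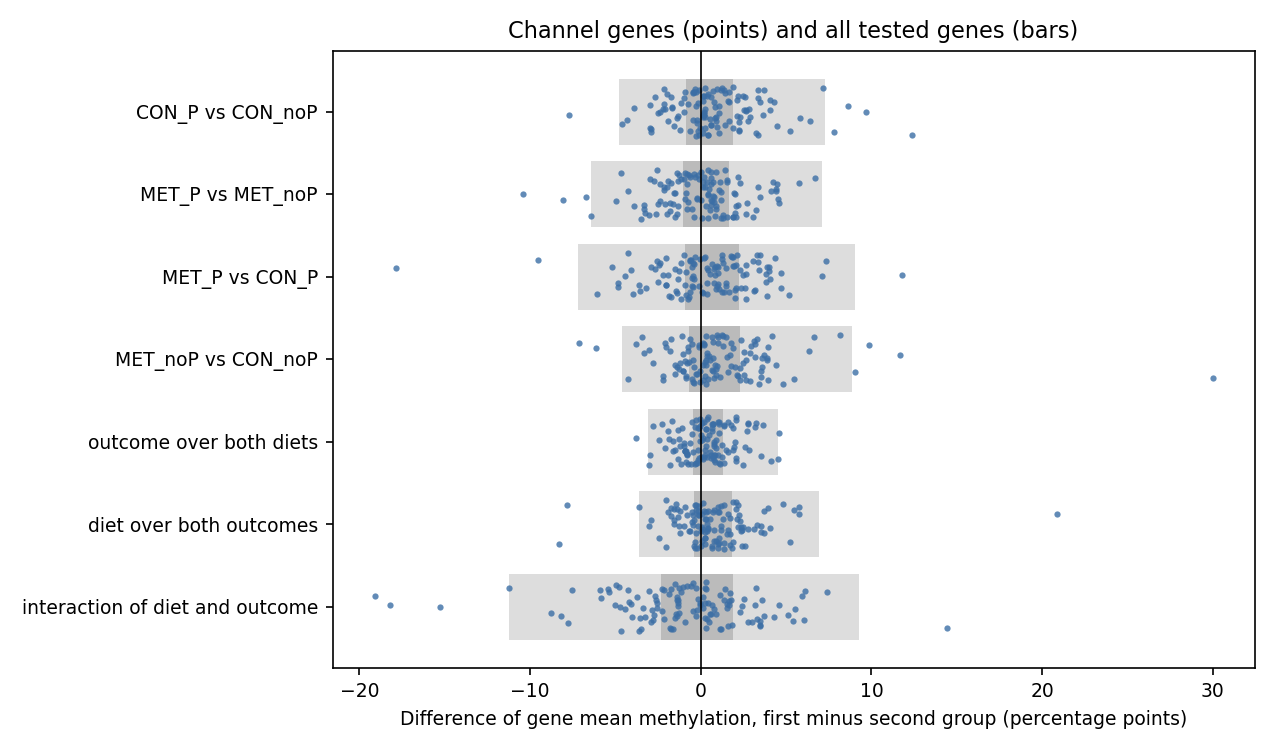
Difference of the methylation level in percentage points (first minus second group, for the interaction the difference of the outcome differences) of 122 channel genes (points) in the 7 comparisons, over the range of the central 50% (dark bars) and 95% (light bars) of 8719 genes. Between 1.64% and 4.92% of the channel genes lie outside the light bars, below the 5% of all genes that these bars leave out.

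In cows on the control diet, CON_P and CON_noP were compared for methylation that goes with pregnancy outcome. Channel genes differed by a median of 0.425 percentage points, beside 0.438 over all genes, and the extremes were TRPC2 at -7.72 and CACNG3 at 12.4. An unadjusted p under 0.05 was found for 3 channel genes (2.46%, beside 3.50% of all genes), 2 with a higher (2.16% of all) and 1 with a lower level (1.34%) in CON_P. With libraries centred on the same median the split was 2 and 2. Groups did not overlap for 3 channel genes, 2.46%, beside 1.95% of all genes.

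RYR2, the ryanodine receptor that releases calcium in cardiac muscle, had the smallest p. Its 14 positions form 1 cluster (chr28:10256347-10256422), and its level was 93.7%, 93.3%, 93.7% and 92.8% in CON_P and 91.5%, 89.9%, 92.3% and 92.2% in CON_noP. No CON_P library reached down to the CON_noP libraries, and the means differed by 1.90 percentage points. The log2 difference of M values was 0.35 ± 0.13 (SE; limma, adjusted p = 0.9998; exact permutation test, p = 0.0286, the smallest that 4 against 4 libraries allow), and its sign turned when only positions with a mean of 10% to 90% were used. The other genes without overlap were TRPV3, a channel opened by warmth, higher by 3.33 points in CON_P, and CACNB3, a cytoplasmic calcium channel subunit, lower by 4.33.

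KCNH5, a voltage-gated potassium channel with 2 positions, was at 100% in 3 CON_P libraries and 85.7% in the fourth, S30, and between 88.6% and 96.3% in CON_noP. Its groups overlapped through that library. At the cluster level, ITPR1, the inositol trisphosphate receptor of type 1, had the smallest p: 5 positions at chr22:21654661-21654706 were at 79.6% ± 3.99 (SD, n = 4) in CON_P and 65.5% ± 3.92 in CON_noP. The groups did not overlap, the difference was 14.1 points, and it did not pass the correction (limma, adjusted p = 0.9999). Unadjusted p-values under 0.05 were found for 8 of 372 channel clusters (2.15%, beside 3.59% of all), 7 of them higher in CON_P (2.35% of all) and 1 lower (1.24%), and 5 and 3 with centred libraries.

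In cows that received RPM, MET_P and MET_noP were compared in the same way. The median difference of the channel genes was 0.131 percentage points, beside 0.284 over all genes. An unadjusted p under 0.05 was found for 4 of 122 (3.28%, beside 5.59%), 1 higher (3.67% of all) and 3 lower (1.92%) in MET_P. Groups did not overlap for 5 channel genes, 4.10%, beside 3.44% of all genes. Among them, TRPM2 and TRPM4 were higher in MET_P by 1.22 and 4.21 points, and KCNN3 and TRPV4 were lower by 3.31 and 6.45.

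TRPV4, a calcium-permeable channel opened by cell swelling and stretch, had the smallest p, with 14 positions on chromosome 17. Its level was 76.6%, 75.6%, 69.1% and 77.2% in MET_P and 81.1%, 78.0%, 83.7% and 81.4% in MET_noP. Every MET_P library was below every MET_noP library. The log2 difference of M values was -0.52 ± 0.17 (SE; limma, adjusted p = 0.810; exact permutation test, p = 0.0286). Of the 3 TRPV4 clusters, only that at chr17:63412852-63412901, with 3 positions, had an unadjusted p under 0.05 here. It was at 28.1% in MET_P and 41.9% in MET_noP, and its groups overlapped (limma, adjusted p = 0.918). In cows on the control diet TRPV4 was instead 2.30 points higher in CON_P, and the difference between the diets had an adjusted p of 0.893 (limma).

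KCNJ10, an inward rectifier of glia and kidney, was at 92.4% ± 1.91 (SD, n = 4) in MET_P and 95.7% ± 1.64 in MET_noP (limma, adjusted p = 0.816). CACNG7 was at 5.64% ± 0.994 and 8.26% ± 2.22 (limma, adjusted p = 0.882). Both pairs of groups overlapped. At the cluster level, CACNA1S, the calcium pore of skeletal muscle, had 4 positions at chr16:79601629-79601668 that were at 84.9% ± 7.72 in MET_P and 66.7% ± 9.06 in MET_noP. The same cluster was at 66.5% ± 9.01 in CON_P and 67.5% ± 8.35 in CON_noP, so MET_P had the highest mean, with overlapping libraries and without passing the correction (limma, adjusted p = 0.915 against MET_noP and 0.751 against CON_P). Over the channel clusters, 14 of 372 had an unadjusted p under 0.05 (3.76%, beside 5.30%), 9 higher (2.78% of all) and 5 lower (2.51%) in MET_P.

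The interaction asks whether the outcome difference was the same on both diets. An unadjusted p under 0.05 was found for 6 channel genes (4.92%, beside 5.40% of all genes), 3 above 0 (2.55% of all) and 3 below (2.86%), or 4 and 3 with centred libraries, and the smallest p was that of TRPC2. TRPC2, of the canonical TRP family, had 2 positions at chr15:51515593-51515611. It was at 90%, 82.7%, 75.6% and 84.6% in CON_P and 95.8%, 89.2%, 85.9% and 93% in CON_noP. It was at 87.1%, 94.3%, 92.3% and 88.5% in MET_P and 78.6%, 82.6%, 83.8% and 90.4% in MET_noP. The outcome difference was thus -7.72 points on the control diet and 6.72 with RPM. The interaction was 14.4 points, or 1.84 ± 0.57 (SE) on the M scale (limma, adjusted p = 0.893). KCNJ10 went the opposite way, with 2.58 points on the control diet and -3.27 with RPM (limma, adjusted p = 0.893), and so did TRPV4.

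**Figure D5:**
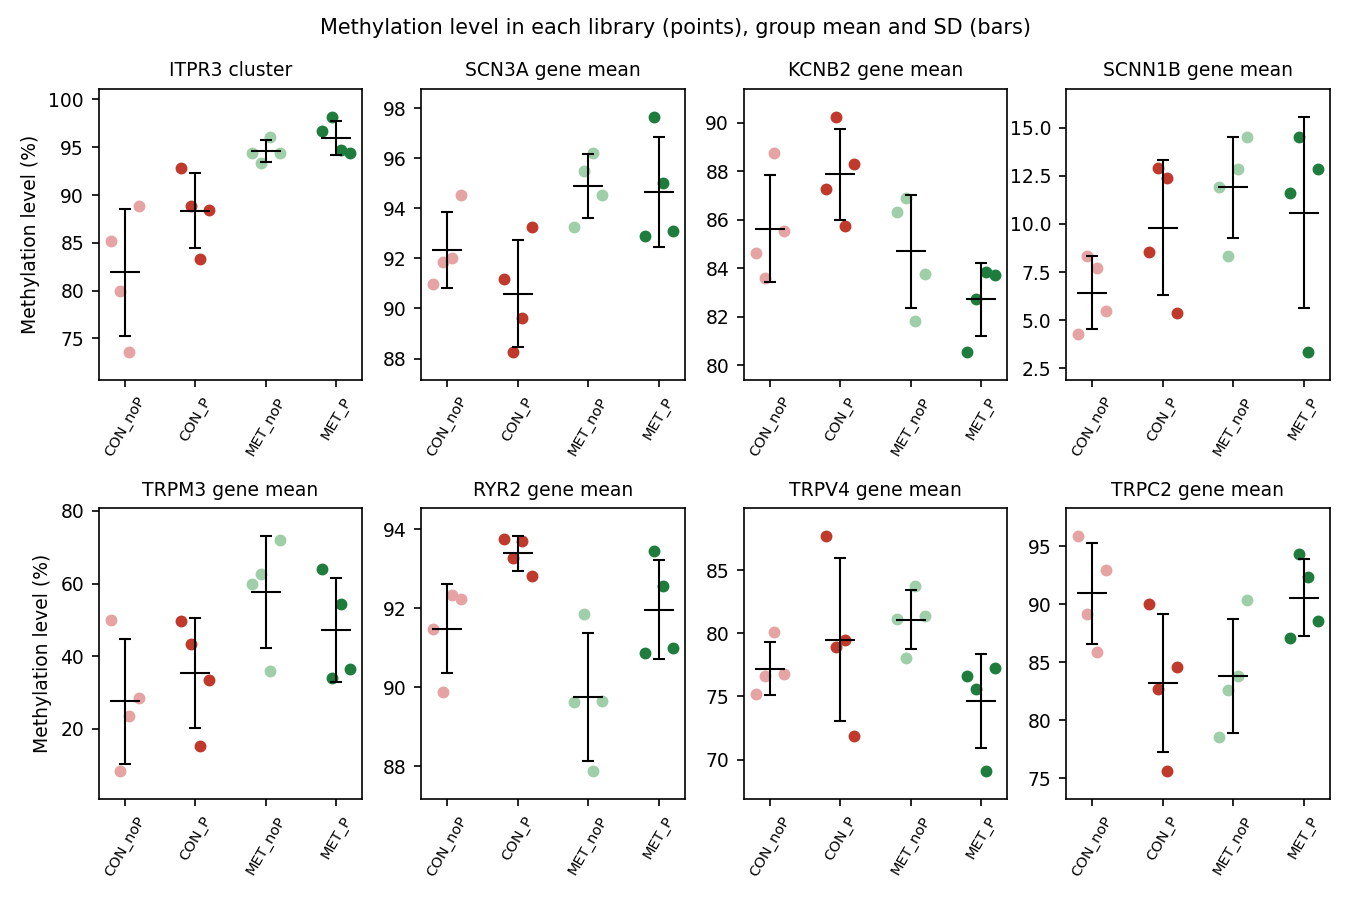
Methylation level (%) in each library (points), with the mean and SD of 4 libraries (black bars), of the ITPR3 cluster on chromosome 23 and of 7 channel genes in the 4 groups; the vertical axes differ and do not start at 0. All MET libraries lie above all CON libraries at the ITPR3 cluster, and TRPC2 and TRPV4 change the order of P and noP between diets.

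Among cows that resulted in pregnancy, MET_P and CON_P were compared for methylation that goes with diet. The outcome was determined after the diets were assigned, so groups chosen by outcome are no longer the randomised groups. This also holds for MET_noP against CON_noP. The median difference of the channel genes was 0.390 percentage points, beside 0.527 over all genes. An unadjusted p under 0.05 was found for 8 of 122 (6.56%, beside 7.26%), 3 higher and 5 lower in MET_P, and the split was the same with centred libraries. Over all genes, 5.47% were higher and 1.79% lower by the same measure. Groups did not overlap for 4 channel genes, 3.28%, beside 3.81%.

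KCNB2, a delayed rectifier potassium channel with 8 positions on chromosome 14, had the smallest p. It was at 80.6%, 82.7%, 83.9% and 83.7% in MET_P and 87.3%, 90.2%, 85.8% and 88.3% in CON_P. The groups were separate, with a log2 difference of M values of -0.57 ± 0.16 (SE; limma, adjusted p = 0.666; exact permutation test, p = 0.0286). KCNN3, a small-conductance calcium-activated potassium channel known to dampen contraction of the uterus, was separate too, at 68.6% ± 1.38 (SD, n = 4) in MET_P and 74.7% ± 3.45 in CON_P (limma, adjusted p = 0.680).

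The largest difference among channel genes was that of CACNG3, an auxiliary subunit known best from glutamate receptors. Its 4 positions at chr25:22022240-22022302 were at 41.3%, 53.3%, 40.4% and 44.1% in MET_P and 65.8%, 71.7%, 68.5% and 44.5% in CON_P. The groups overlapped because of CON_P library S30, and the difference of -17.9 points had an adjusted p of 0.679 (limma). KCNV1 was at 13.3% ± 3.49 in MET_P and 8.09% ± 2.01 in CON_P (limma, adjusted p = 0.673). In KCNQ1, a cluster of 4 positions at chr29:49050601-49050685 was at 90.2% ± 2.78 in MET_P and 71.7% ± 12 in CON_P, where library S30 was at 89.7% and the other libraries between 65.0% and 67.0% (limma, adjusted p = 0.751). Unadjusted p-values under 0.05 were found for 26 of 372 channel clusters (6.99%, beside 6.65%), 20 higher (4.07% of all) and 6 lower (2.58%), and 14 and 12 with centred libraries.

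Among cows that resulted in no pregnancy, MET_noP and CON_noP differed by a median of 0.680 percentage points over the channel genes, beside 0.634 over all. An unadjusted p under 0.05 was found for 9 of 122 (7.38%, beside 6.39%), 7 higher (4.75% of all) and 2 lower (1.64%) in MET_noP, and 4 and 2 with centred libraries. Groups did not overlap for 6 channel genes, 4.92%, beside 3.75%.

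SCNN1B, the beta subunit of the epithelial sodium channel, had the smallest p, with 2 positions on chromosome 25. It was at 11.9%, 8.33%, 12.8% and 14.5% in MET_noP and 4.27%, 8.32%, 7.75% and 5.45% in CON_noP. The groups were only just separate, since the lowest MET_noP library and the highest CON_noP library differed in the third digit. The log2 difference of M values was 0.90 ± 0.25 (SE; limma, adjusted p = 0.748; exact permutation test, p = 0.0286). In MET_P the gene spread from 3.37% to 14.5%, and MET_P and CON_P differed by 0.776 points. TRPM3 showed the largest difference of any channel gene in any comparison of 2 groups, 30 points between 57.6% ± 15.4 (SD, n = 4) and 27.6% ± 17.2, and its groups overlapped (limma, adjusted p = 0.748). ITPR2 was at 96.9% ± 0.844 and 98.9% ± 1.31. Unadjusted p-values under 0.05 were found for 20 of 372 channel clusters (5.38%, beside 5.71%), 17 higher (4.23% of all) and 3 lower (1.48%), and 11 and 8 with centred libraries.

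Over both outcomes, all 8 MET libraries were compared with all 8 CON libraries. An unadjusted p under 0.05 was found for 12 channel genes (9.84%, beside 8.76% of all genes), 8 higher (7.34% of all) and 4 lower (1.42%) in MET, and 6 and 5 with centred libraries. The smallest p was that of SCN3A, a neuronal sodium pore with 5 positions at chr2:31180394-31180439. It ran from 92.9% to 97.6% in MET and from 88.3% to 94.5% in CON, and the means differed by 3.31 points (limma, adjusted p = 0.505). SCN4B, an auxiliary sodium channel subunit, was 3.71 points higher in MET, and ITPR3 3.52 points higher (limma, adjusted p = 0.505 for both).

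Among channel genes and clusters, the lowest adjusted p in any comparison was that of a cluster in ITPR3, the inositol trisphosphate receptor of type 3, which releases calcium in epithelia. Its 3 positions lie at chr23:7800879-7800915. They averaged 96.7%, 98.1%, 94.7% and 94.4% in MET_P and 94.4%, 93.3%, 96.1% and 94.4% in MET_noP. They averaged 92.9%, 88.9%, 83.3% and 88.4% in CON_P and 85.1%, 80%, 73.6% and 88.9% in CON_noP. The lowest MET library was therefore above the highest CON library.

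Such a separation of 8 from 8 was found for 1 of 372 channel clusters (0.269%) and 0.0293% of all clusters. MET was 10.1 percentage points above CON, 1.60 ± 0.25 (SE) on the M scale (limma, adjusted p = 0.163). The exact permutation test within outcomes gave p = 0.000408, the smallest it allows, for this cluster picked from many. With each library left out and under the other alternatives the adjusted p ran from 0.0812 to 0.564 (limma). The difference was 7.62 points between MET_P and CON_P and 12.7 between MET_noP and CON_noP, with no overlap in either. A second ITPR3 cluster, 6 positions at chr23:7809499-7809550, was higher in MET_noP (87.6% ± 1.70) than in CON_noP (76.2% ± 5.88), but MET_P (83.7% ± 2.01) and CON_P (85.2% ± 3.77) overlapped. The gene's 8 clusters ranged from 23.2% to 90.4%, so the first is among its most methylated stretches.

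KCNT1 held the channel cluster with the next smallest p for diet, 5 positions at chr11:103339819-103339864. It was at 70.2% ± 0.893 (SD, n = 4) in MET_P and 63.3% ± 3.13 in MET_noP, against 58.5% ± 2.82 in CON_P and 57.4% ± 6.37 in CON_noP (limma, adjusted p = 0.645). Another KCNT1 cluster, 4 positions at chr11:103385244-103385293, went the other way. It was at 74.7% in MET and 81.6% in CON (limma, adjusted p = 0.645). Unadjusted p-values under 0.05 were found for 26 of 372 channel clusters (6.99%, beside 7.20%), 19 higher (5.23% of all) and 7 lower (1.98%) in MET. With centred libraries the split turned to 11 and 14.

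Over both diets, P libraries were compared with noP libraries. Only 2 channel genes had an unadjusted p under 0.05 (1.64%, beside 3.35% of all genes), both higher in P (2.51% of all), and 0 were lower (0.837%). RYR2 was 2.05 percentage points higher in P (92.7% against 90.6%; limma, adjusted p = 0.999), and KCNG4, a modifier subunit of potassium channels, 4.56 points higher (93.1% against 88.5%; limma, adjusted p = 0.999). KCNG4 was at 76.9% in MET_noP library S25, and without that library the difference was 2.73 points. In RYR2 the difference was 1.90 points on the control diet and 2.21 with RPM, where the groups overlapped. HCN4, the main pacemaker channel of the heart, followed with 27.7% against 24.5%, and its direction turned when the median over its positions was used (limma, adjusted p = 0.999). No channel gene differed by more than 5 points in this comparison, beside 2.58% of all genes. A cluster of 7 positions in KCNK13 at chr10:101781937-101781999 was lower in P by 6.69 points (limma, adjusted p = 0.9998).

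Of the channel genes singled out in the study's Results, these were read at the gene level: CACNA1C, CACNA1H, CACNA1I, CACNG5, KCNA1, KCNH2, KCNJ6, KCNK5, KCNK13, KCNK17 and KCNQ1. In the comparisons of 2 groups their unadjusted p-values were all above 0.05, and the smallest was 0.119, for KCNK5 in CON_P against CON_noP (limma). KCNK5, a two-pore channel sensitive to acid, was at 49.9%, 42.3%, 40.7% and 33.1% in CON_P and 31.5%, 38.1%, 37.2% and 33.8% in CON_noP. These groups overlapped, with a difference of 6.39 points. The study named these genes from single CpG sites. Some of their clusters had an unadjusted p under 0.05, in both directions, and none passed the correction (limma). In MET_P against MET_noP, a KCNJ6 cluster at chr1:149913249-149913285 was 7.62 points higher and the KCNK13 cluster at chr10:101781937-101781999 8.37 lower. In MET_P against CON_P, a CACNG5 cluster at chr19:63004303-63004333 was 17.1 points higher and a CACNA1H cluster at chr25:940731-940809 7.50 lower.

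KCNQ1 and CACNA1C, with many positions, varied little between libraries. KCNQ1 was at 78.6% ± 1.41 (SD, n = 4) in MET_P and 78.0% ± 0.709 in MET_noP, and at 77.3% ± 2.09 in CON_P and 77.4% ± 1.21 in CON_noP. CACNA1C was at 76.8% ± 1.02, 75.6% ± 0.462, 76.4% ± 1.96 and 75.5% ± 0.333 in the same order. KCNA1, a voltage-gated potassium channel of axons with 11 positions, varied more, at 21.0% ± 3.77, 25.9% ± 12.3, 23.7% ± 3.63 and 26.4% ± 6.78. These are means over whole genes and say nothing of single positions.

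At single positions, 100 of the 2654 channel sites had an unadjusted p under 0.05 in CON_P against CON_noP (3.77%, beside 3.93% of all sites), 119 in MET_P against MET_noP (4.48%, beside 5.12%), 155 in MET_P against CON_P (5.84%, beside 5.83%) and 141 in MET_noP against CON_noP (5.31%, beside 5.13%). These shares lay near the background in each comparison. The sites with the smallest p were those where every library of a group read 100%. A KCNJ6 site, in an inward rectifier opened by G proteins, at chr1:149941168 was at 100% in all CON_noP libraries and at 90.5%, 86.2%, 94.1% and 90% in CON_P (limma, adjusted p = 0.181). A CACNA1C site at chr5:108792501 was at 100% in all CON_noP libraries and between 91.7% and 94.7% in MET_noP (limma, adjusted p = 0.152). A KCNJ15 site at chr1:150594888 was at 100% in all MET_noP libraries and between 95.5% and 96.0% in MET_P (limma, adjusted p = 0.148). Such steps of a few points cannot be weighed without the read counts.

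Other cation channels, pumps, exchangers and calcium partners outside the symbols of the rule were read from a list of 70 genes, of which 49 had 2 or more positions. None passed the adjusted threshold (limma). In CON_P against CON_noP, 7 of the 49 had an unadjusted p under 0.05, all higher in CON_P, beside 2.16% of all genes. ATP1B1, the beta subunit of the sodium pump with 2 positions, was at 73.7% in CON_P and 53.0% in CON_noP without overlap, and at 57.0% in MET_P (limma, adjusted p = 0.9998). CAMK2B, a kinase activated by calcium and calmodulin, was at 67.9% and 61.9%, and CNGA4, a cyclic nucleotide-gated subunit, at 94.8% and 91.8%. In MET_P against CON_P, 1 of the 49 was higher (5.47% of all genes) and 5 were lower (1.79%). STIM2, a sensor of stored calcium, was 3.32 points higher and the difference of SLC24A2, a calcium exchanger, was -10.1 points. In MET_P against MET_noP only CATSPER2, a sperm calcium channel subunit, had an unadjusted p under 0.05, at 10.4% and 6.22%, which is 2.04% of the 49, beside 5.59% of all genes. In MET_noP against CON_noP none of the 49 did, beside 6.39% of all genes.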

How the data were processed

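The authors used Trim Galore on the RRBS reads and Bismark for alignment (ARS-UCD1.2), merged runs with SAMtools and quantified positions with at least 10 calls in SeqMonk. The deposited values are percent methylation per position and library, with no normalization between libraries. Positions without a value or at zero had been discarded. The lowest value in any library is 1% and the highest 100%, so positions that read as unmethylated in even a single library are missing. Columns were assigned to groups by the group names above them. Members and gene lists were chosen with earlier results of these data known. Means over positions were transformed to M = log2((percent + 1)/(100 - percent + 1)) and tested two-sided with limma 3.58.1 (eBayes without trend) in R 4.3.3. Comparisons of 2 groups used 8 libraries. Diet, outcome and their interaction used all 16, with the other factor in the model. The Benjamini-Hochberg adjustment ran over all genes, clusters or positions, with a threshold of 0.05. Exact permutation tests over libraries were added for single values, and their smallest p for 4 against 4 is 0.0286. Groups that do not overlap give this smallest p by themselves. The genes and clusters so tested were picked from these same data, so these p-values are no independent support. The limma step was tried on simulated normal M values, drawn independently for each library. That simulation had no ceiling at 100% and no shared shift of a library, so it does not cover these features. The logistic regression of the study needs counts and was not repeated. Named genes were the 4 (or, over all libraries, 3) with the smallest p in each comparison, those in the study's Results, the extremes of each role group and the 3 with most positions; for clusters and sites it was the 2 with the smallest p. The values of a few genes that this rule or the comparisons would name are not reported here. Other genes named for separate groups, KCNN3, TRPV3, CACNB3, TRPM2, TRPM4, KCNT1 and the variable clusters among them, were chosen after their values were seen. So were the KCNT1 cluster that was lower in MET, the TRPV4 cluster and the clusters of genes singled out in the study. Tables and figures were made with pandas 2.3.3, numpy 2.4.6 and matplotlib 3.10.9. Gene names are those in the table, and no genome sequence was used.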

Additional observations from a re-analysis of the deposited data

Results flagged for a closer look

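In groups of 4 libraries, a library whose gap to the nearest other exceeded Dixon's 95% critical share of the group's range was noted; 6 of 244 groups were (2.46%), and chance gives about 1 in 20. KCNH5 was at 85.7% in CON_P library S30, with the others at 100%. The KCNQ1 cluster at chr29:49050601-49050685 was at 89.7% in the same library, with the others between 65.0% and 67.0%. SCN4B was at 18.9% in MET_P library S19, with the others between 10.4% and 11.1%. In MET_noP library S25, KCNK5 was at 45.6%, with the others between 36.2% and 37.0%, and TRPV6 was at 91.7%, with the others between 97.2% and 98.1%. TRPM8 was at 94.5% in MET_noP library S17, with the others between 84.3% and 85.9%.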

How the results depend on the processing

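The counts of called channel genes and clusters stayed at 0 under every alternative tried, among them each library left out, where the lowest adjusted p was 0.122 for genes and 0.0812 for clusters (limma). The count of called channel sites stayed at 0 with each library left out (range 0 to 0) and changed in the 4 comparisons of 2 groups with an offset of 0.1 in place of 1 percentage point. It became 5 in CON_P against CON_noP, 5 in MET_P against MET_noP, 3 in MET_P against CON_P and 6 in MET_noP against CON_noP. All 19 calls were sites where every library of a group reads 100%, with differences of 2.68 to 11.0 percentage points. The median level of the channel genes, averaged over libraries, was 67.5% and became 79.1% when the median over the positions of a gene replaced the mean; the cause was not tested. The difference of RYR2 between CON_P and CON_noP turned to -0.0334 with positions of 10% to 90% only, and that of HCN4 between outcomes to -0.0662 with medians over positions (both on the M scale). Centring the libraries moved the median M difference of all sites by 0.13 in the diet comparisons, and the split of channel sites with an unadjusted p under 0.05 went from 86 higher and 59 lower to 49 and 104 for diet, from 82 and 73 to 57 and 100 in MET_P against CON_P, and from 95 and 46 to 71 and 69 in MET_noP against CON_noP. The columns carry no replicate number that a label gives, but library numbers form 4 runs of consecutive numbers with 1 library of each group. A model with these runs as a replicate block, chosen after seeing the data, called 0 channel genes, clusters and sites in every comparison (limma). With the block, 2 to 13 channel genes a comparison had an unadjusted p under 0.05, beside 2 to 12 without it, with 7 beside 4 in MET_P against MET_noP. Over all genes, the deviations from the group means correlated by a median of 0.01 within a run (24 pairs of libraries, from -0.11 to 0.13), and 4 of the 16 libraries correlated best with one of their own run, so the runs were not used as pairs. Depth per position is unknown.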
